A study of Mus musculus with 2 samples.

Results

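Of the genes on a mouse expression array, 39 that encode lysosomal hydrolases, lysosomal membrane proteins, the proton pump of the lysosome or the transcription factors that drive them were examined here. They are a list of known lysosomal genes, made without a cut on their values but with earlier results of these data known. A probe counted as theirs when its transcript accession belongs to the gene. All 39 had a probe, among 23782 genes that could be named. Where several probes read a gene, the brightest by its mean over both arrays was used, and 38 of the 39 genes were well above background on both arrays by the call of the scanner program, the exception being Galc. The RNA came from bone marrow-derived dendritic cells (BMDCs), which are antigen-presenting cells, of C57BL/6J mice labelled male. Femoral marrow was cultured in MEM with 10% serum and 10 ng/ml of the growth factor GM-CSF until day 6, with no further treatment named. The groups were 1 sample labelled EGR1-deficient and 1 labelled wild type (WT), each read on 1 one-colour array. EGR1 is a zinc-finger transcription factor induced early by many stimuli. How the Egr1 gene was disrupted, the age of the mice and whether marrow was pooled are not given in the sources used here.

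The lysosome is the acidic compartment in which cells break down material taken up from outside and their own worn parts, and dendritic cells use it to cut proteins into peptides for presentation. Its lumen holds hydrolases for sugar chains, sulfated sugars, lipids and proteins, and most of them work at acid pH. That pH is set by the V-ATPase, a rotary pump in which the V1 part in the cytosol splits ATP and the V0 part in the membrane moves protons. Heavily glycosylated proteins such as LAMP1 and LAMP2 line the membrane. The related factors TFEB, TFE3 and MITF bind an E-box motif, called CLEAR, near many of these genes and can switch them on together.

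That motif was looked for first. It is known from lysosomal genes such as these, so an excess of it in the list is not an independent result. The promoter table of RefSeq (build GRCm38.p6) gives 300 bases per start site, 250 before it and 50 after it, and it matched 34 of the 39 genes. Asah1, Atp6v1b2, Atp6v1c1, Atp6v1h and Npc1 were not matched. The E-box CACGTG, which reads the same on both strands, occurred in the promoters of 10 of the 34 genes (29.4%), against 8.09% of 27025 genes in the table and 11.0% of the 10919 that were well above background on both arrays. In all 10 the E-box carried a T before it or an A after it, which makes TCACGTG on one strand or the other. That longer motif, which overlaps the E-box, occurred in 4.29% of all genes and 6.45% of those above background. The 8-base TCACGTGA, which holds both, occurred in 4 of the 34 (11.8%), against 1.12% and 2.03%. The 10-base CLEAR consensus GTCACGTGAC occurred in none of the 34, against 0.370% and 0.696%. A match is a run of letters and not a shown binding site.

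The stretches with a match are printed because they show how often and how near the start site the motif lies. Capitals mark the motif, each run is on the gene's own strand, and positions are in GRCm38.p6.
Lamp1, chr8:13159073-13159178, plus strand: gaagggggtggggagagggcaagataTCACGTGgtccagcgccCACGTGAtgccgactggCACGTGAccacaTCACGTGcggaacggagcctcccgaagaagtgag
Mcoln1, chr8:3500421-3500506, plus strand: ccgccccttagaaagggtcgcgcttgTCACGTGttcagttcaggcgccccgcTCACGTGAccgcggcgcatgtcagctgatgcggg
Gla, chrX:134601167-134601255, minus strand: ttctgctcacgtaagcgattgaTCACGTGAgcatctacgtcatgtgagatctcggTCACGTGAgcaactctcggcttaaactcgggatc
Glb1, chr9:114401003-114401062, plus strand: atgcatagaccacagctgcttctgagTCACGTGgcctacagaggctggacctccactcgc
Gaa, chr11:119267796-119267855, plus strand: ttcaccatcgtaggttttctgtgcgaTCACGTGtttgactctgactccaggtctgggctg
Naglu, chr11:101069994-101070053, plus strand: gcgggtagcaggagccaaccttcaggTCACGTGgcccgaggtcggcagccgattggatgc
Arsa, chr15:89477408-89477467, minus strand: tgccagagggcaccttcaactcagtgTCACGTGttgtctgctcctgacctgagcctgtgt
Atp6v0b, chr4:117887315-117887392, minus strand: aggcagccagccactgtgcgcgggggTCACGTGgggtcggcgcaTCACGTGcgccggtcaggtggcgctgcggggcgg
Atp6v0d1, chr8:105566035-105566094, minus strand: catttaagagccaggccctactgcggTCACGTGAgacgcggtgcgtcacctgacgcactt
Atp6v1a, chr16:44139358-44139417, minus strand: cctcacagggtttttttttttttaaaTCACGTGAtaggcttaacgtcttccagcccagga
The 10 stretches hold 16 copies, of which 12 lie within 75 bases of the start site. Lamp1 has 4 copies, and Mcoln1, Gla and Atp6v0b have 2 each.

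Before the comparisons, the labels were set against the genes they imply. Egr1 itself did not bear out its label, with a signal of 1212 in the sample labelled EGR1-deficient and 379.7 in WT. It was read by 1 probe whose place relative to the disrupted part is not known here, so the probe neither bears out nor refutes the genotype, and every direction below rests on the label as given. Both samples are labelled male, yet Xist, the RNA of the inactive X chromosome, read 4559 and 3425, and the Y-linked genes Ddx3y, Kdm5d and Uty were not well above background in either sample. Eif2s3y, also Y-linked, read 27.1 and 25.6. Of 18 dendritic cell markers 16 were well above background in both samples, among them Itgax, Flt3, Zbtb46 and the MHC class II genes, while Clec9a and Xcr1 were not. Of 20 macrophage markers 19 were, so the cultures held macrophage transcripts as well. With 1 sample per group no p-value was computed, and every difference is a single reading whose biological spread is unknown. The only errors are technical: the difference had a median SD of 0.07 log2 units between repeated spots of a probe (255 probes) and of 0.17 between 2 probes of a gene (3571 genes).

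Most lysosomal genes lay slightly lower in the sample labelled EGR1-deficient, and none was 2-fold apart. Values are log2 signal minus the 75th percentile of the array, and a difference is the sample labelled EGR1-deficient minus WT. The median difference over the 38 genes was −0.17, from −0.48 for Atp6v1c1 to 0.27 for Gla, while over all 13722 genes well above background on both arrays it was −0.05. Of the 38, 32 were below 0 (84.2%), against 57.4% of all genes. At 1.3-fold or more, which is 0.38 log2 units, 4 were lower (10.5%), against 11.3% of all genes, and 0 were higher, against 8.62%. That cut is not a limit on technical error, since the SD between probes is a median over genes, each with 2 values. These counts move with the scale: none was lower in the authors' series table, against 5.27% of all genes, and 1 higher, against 14.1%, while scaling to the array median gave 11 lower, against 21.3%, and 0 higher, against 5.18%. At 2-fold or more, in either direction, the count was 0 of 38, against 1.71%, and on those other scales 0 of 38 against 1.33% and 1.89%. The share lower by 1.3-fold is near the background on the percentile scale and on either side of it on these scales, while the share below 0 is above it.

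The brightness of these genes bears on that comparison. At or above the 75th percentile of both arrays stood 34 of the 39 lysosomal genes and 6713 of all genes. In that bright range 29 of the 34 were below 0 (85.3%), against 64.9%, with a median of −0.17 against −0.08. Lower by 1.3-fold or more were 3 of the 34 (8.82%), against 6.69%, and higher 0, against 2.03%. At 2-fold it was 0, against 0.164%. Loess normalization, which removes a difference that depends on brightness, left 25 of the 38 below 0 (65.8%), against 55.1%, and a median of −0.08 against −0.03. After it 1 was lower by 1.3-fold, Atp6v1c1, against 12.8%, and 1 higher, Gla, against 7.27%. Quantile normalization gave 27 of 38 below 0 (71.1%), against 54.1%, with 2 lower by 1.3-fold, against 11.9%, and 0 higher, against 7.88%. None was 2-fold apart after loess, against 1.87%, or after quantile normalization, against 1.83%.

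**Figure D1:**
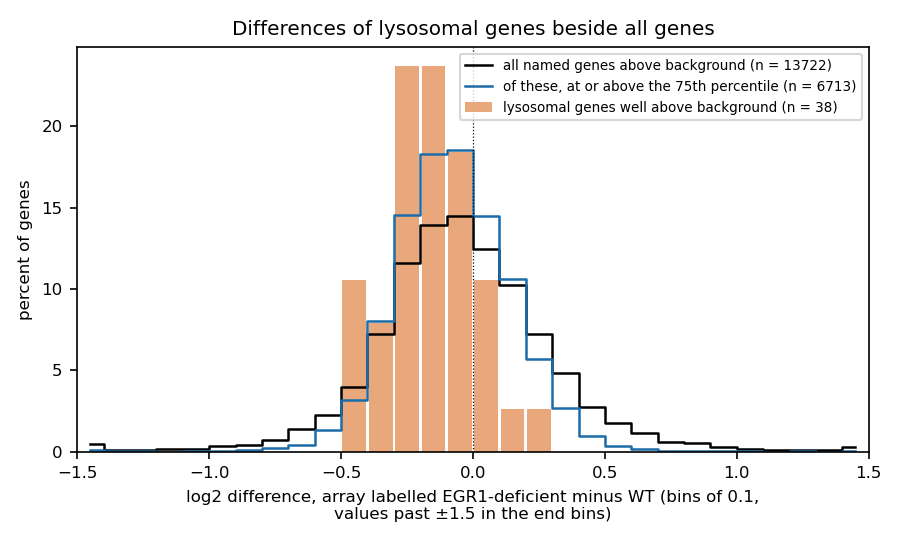
Percent of genes (y axis) in bins of 0.1 of the log2 difference between the sample labelled EGR1-deficient and WT (x axis), for 38 lysosomal genes (bars), 13722 genes above background (black line) and the 6713 of them at or above the 75th percentile (blue line). The bars lie within −0.48 to 0.27 and most stand left of 0, where both lines also peak.

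The enzymes and helper proteins of the lumen had the lowest median of the role groups. Of 18 measured, 16 were below 0 (88.9%, against 57.4% of all genes), with a median of −0.23. Under loess it was 15 of 18 (83.3%, against 55.1%) with a median of −0.15. Signals are given below with the sample labelled EGR1-deficient first and WT second. Levels of different probes cannot be set against each other, so each pair is read within its gene.

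Among the 12 hydrolases of sugar chains and sulfates, 9 of the 11 measured were below 0 (81.8%, against 57.4% of all genes). Their median was −0.25. Gusb, the beta-glucuronidase that is also a common reference gene, read 917 and 1169, a difference of −0.42. Its dimmer probe gave −0.23, so both placed it lower in the sample labelled EGR1-deficient. Arsa, the arylsulfatase that clears sulfatide, read 222 and 265 (−0.32). Naglu, an enzyme of heparan sulfate breakdown, read 523 and 612 (−0.29). Hexa, the alpha subunit of the hexosaminidase that degrades GM2 ganglioside, read 5207 and 5979 (−0.27). Each of these 3 rests on a single probe and a difference above the spread between probes, though for Hexa it was −0.12 after quantile normalization, −0.14 after loess and −0.15 in the authors' series table, below that spread.

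Glb1, the acid beta-galactosidase, read 229 and 259 (−0.25), but −0.06 in its other probe. Man2b1, the acid alpha-mannosidase, read 4884 and 5394 (−0.21), and Manba, the beta-mannosidase, 216 and 230.4 (−0.16). Neu1, the sialidase, read 322 and 351 (−0.19). The latter 3 are each by 1 probe and lie close to the spread between probes. After loess Man2b1 was −0.09, Manba −0.15 and Neu1 −0.15, below that spread. Gaa, the glucosidase that breaks down glycogen, was dim and unsettled: 49.8 and 57.8 in the chosen probe (−0.28) but 0.11 in the other.

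Against these stood a pair of enzymes on the higher side. Gla, the alpha-galactosidase whose promoter holds TCACGTGA in 2 copies, read 22296 and 17599, a difference of 0.27 by its only probe. It was the highest of the 38. Arsb, which removes sulfate from dermatan sulfate, read 85.6 and 75.01 (0.12), with 0.10 in the other probe, which is within the spread between probes. Galc, the galactosylceramidase, read 6.11 and 4.77, not well above background in either sample, and no difference is drawn from it.

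The 7 proteins that handle lipids and peptides in the lumen were all below 0, against 57.4% of all genes. Their median was −0.20 and their range −0.36 to −0.09. Tpp1, a tripeptidyl peptidase, read 549.8 and 675 (−0.36). Lipa, the acid lipase that frees cholesterol from its esters, read 1635 and 1875 (−0.26), and Npc2, which carries the freed cholesterol, 3718 and 4251 (−0.26). Psap, the precursor of the saposins that help enzymes reach lipids, read 4149 and 4563 (−0.20). Smpd1, the acid sphingomyelinase, read 139 and 149 (−0.17). All of these have 1 probe, and none reached 1.3-fold. After loess Tpp1 was −0.29 and Smpd1 −0.19, while Lipa (−0.16), Npc2 (−0.14) and Psap (−0.08) fell below the spread between probes.

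The remaining pair had several probes, all below 0. Ppt1, which removes palmitate from proteins, read 401 and 414 (−0.11), with −0.10 and −0.21 in its other probes. Asah1, the acid ceramidase, read 1098 and 1113 (−0.09), and −0.33 in a dimmer probe.

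All 6 membrane proteins were below 0 as well, against 57.4% of all genes, but only part of them by more than the technical spread. Their median was −0.16, which loess reduced to −0.01 with 3 of 6 below 0, against 55.1% of all genes. Scarb2, the receptor that brings glucocerebrosidase to the lysosome, read 544 and 702 (−0.44, 1.35-fold), and −0.19 in the other probe. Lamp2, a membrane glycoprotein needed for fusion with autophagosomes, read 2347 and 2990.3 (−0.42, 1.33-fold), but its other probe read 1800 and 1787 (−0.06). Lamp2 therefore passed 1.3-fold in 1 of its 2 probes only, as did Scarb2.

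Lamp1, the sister glycoprotein with 4 motif copies in its promoter, read 37298 and 39080.3 (−0.13), and −0.12 in its other probe. Cd63, a tetraspanin of late endosomes and lysosomes, was printed as 10 spots on each array. Its spots ran from 4631 to 5167 with a median of 4918 in the sample labelled EGR1-deficient, and from 5080.3 to 5685 with a median of 5301 in WT. The ranges overlapped, and the difference was −0.18 ± 0.07 (SD over 10 spots, a technical error). All 10 spot differences were below 0, from −0.32 to −0.10. The difference was smaller after quantile normalization, −0.03, after loess, −0.06, and in the authors' series table, −0.07. Npc1, the cholesterol exporter, read 844 and 811 (−0.01), and Mcoln1, the calcium channel of the lysosome, 461 and 444 (−0.01), so each differed by less than the technical error.

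**Figure D2:**
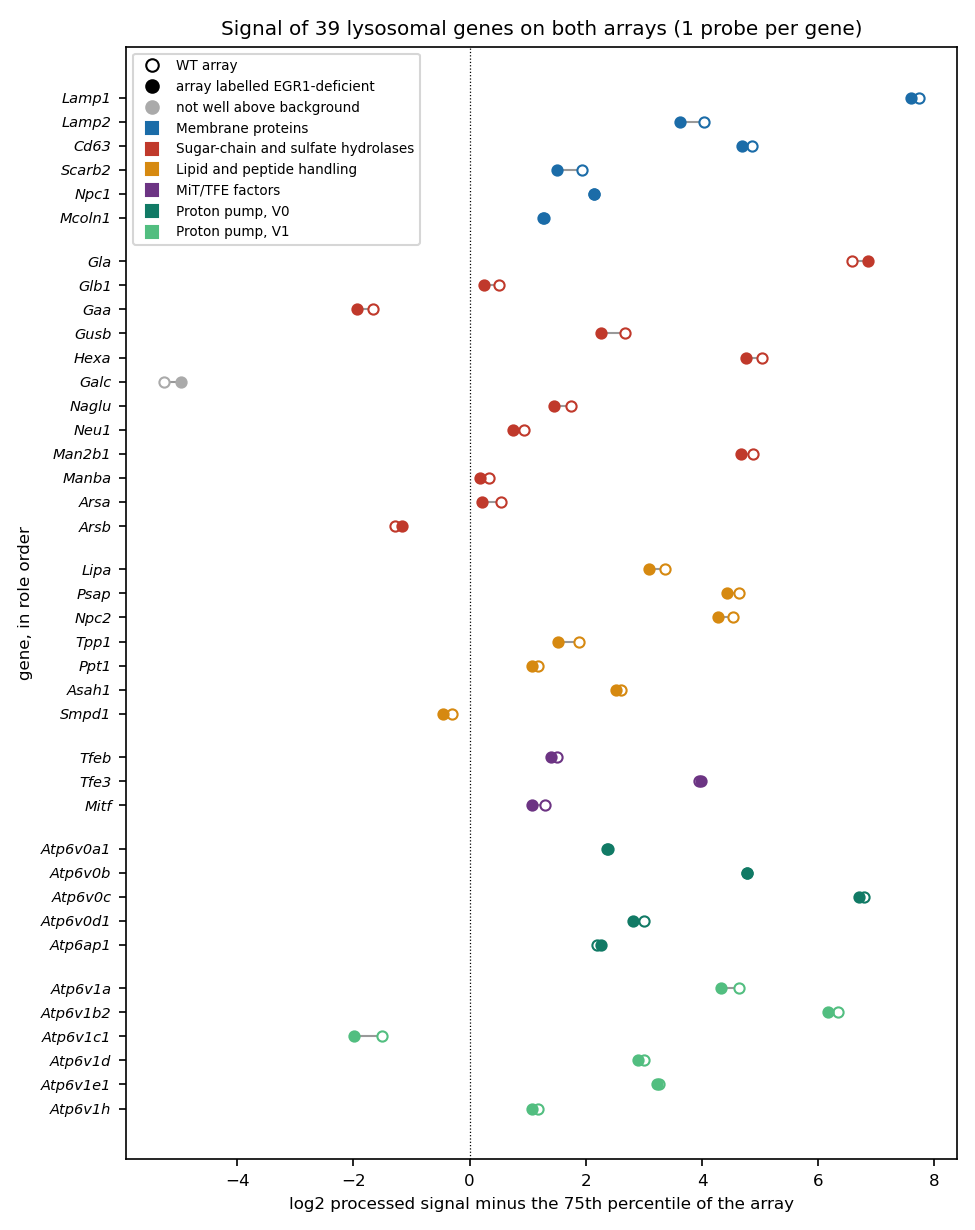
Log2 processed signal minus the 75th percentile of the array (x axis) for the chosen probe of each of 39 genes (y axis, in role order), with WT as open and the sample labelled EGR1-deficient as filled circles, coloured by role. Filled circles lie left of the open ones for 16 of 18 measured hydrolases and lumen proteins, Gla and Arsb being the exceptions, and the 2 circles of most proton pump genes nearly coincide. Galc (grey) is not well above background.

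The proton pump stayed closer to 0 than the enzymes did, a contrast that was not tested. Of its 11 genes, 8 were below 0 (72.7%, against 57.4% of all genes) with a median of −0.09. The median was 0.0049 after loess and 0.02 in the authors' series table. In the V0 part 2 of 5 were below 0 (40.0%). Atp6v0c, the proteolipid that forms the proton-carrying ring, read 20026 and 20153 (−0.08), and 0.16 in the other probe. Its partner in the ring, Atp6v0b, read 5270.4 and 5008 (0.01). Atp6v0a1, one of the proton-channel subunits, read 998 and 945 (0.01) but 0.43 in a dim probe at 87.8 and 62.3.

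Atp6ap1, an accessory subunit used in assembly, read 916 and 834 (0.07), with −0.04 in the other probe. Atp6v0d1, which couples the ring to the stalk, was the lowest of the V0 genes at 1352 and 1456 (−0.17, 1 probe). For the V0 part the chosen probes thus spanned −0.17 to 0.07, and the probes of Atp6v0c and Atp6ap1 differed in sign.

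In the V1 part all 6 genes were below 0, against 57.4% of all genes, and the median was −0.14. Atp6v1c1, which holds the stator together, read 48.3 and 64.4 (−0.48, 1.40-fold) by its only probe, a dim one. It was the lowest of the 38, and after normexp background correction its difference was −0.20. Atp6v1a, the catalytic subunit, read 3850.3 and 4564 (−0.31, 1 probe). Atp6v1b2, which alternates with it in the ATP-splitting ring, read 13724 and 14759 (−0.17) but 0.18 in the other probe.

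The other V1 subunits lay nearer 0. Atp6v1h, which regulates the pump, read 404 and 415 (−0.10) and 0.00 in a dimmer probe. Atp6v1d, of the central stalk, read 1432 and 1459 (−0.09), and Atp6v1e1, of the outer stalks, 1799 and 1761 (−0.04), each by 1 probe.

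The transcription factors showed no shift that their probes shared. Tfeb, the best-known activator of lysosomal genes, read 505 and 516 (−0.10), with 0.19 and −0.06 in its other probes. Tfe3 read 3017 and 2811 (0.04), and a dim probe 104 and 139 (−0.49). Mitf, also the factor of pigment cells and osteoclasts, read 404 and 451 (−0.22). A probe of Mitf with nearly the same mean signal read 466 and 389 (0.19), and another 0.15, so its sign turns on which probe is read. Averaging all probes of a gene put the median of the 3 factors at 0.01, against −0.10 with the brightest probe, and it was 0.02 in the authors' series table.

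Over the list, 17 genes had more than 1 probe above background. In 9 of these the probes shared a sign and in 8 they did not: Gaa, Tfeb, Tfe3, Mitf, Atp6v0c, Atp6ap1, Atp6v1b2 and Atp6v1h. Between the probes of such a gene the SD had a median of 0.17, as large as the median difference of the list. Of 58 probes above background, 43 were below 0, and the same share was not counted over all probes.

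**Figure D3:**
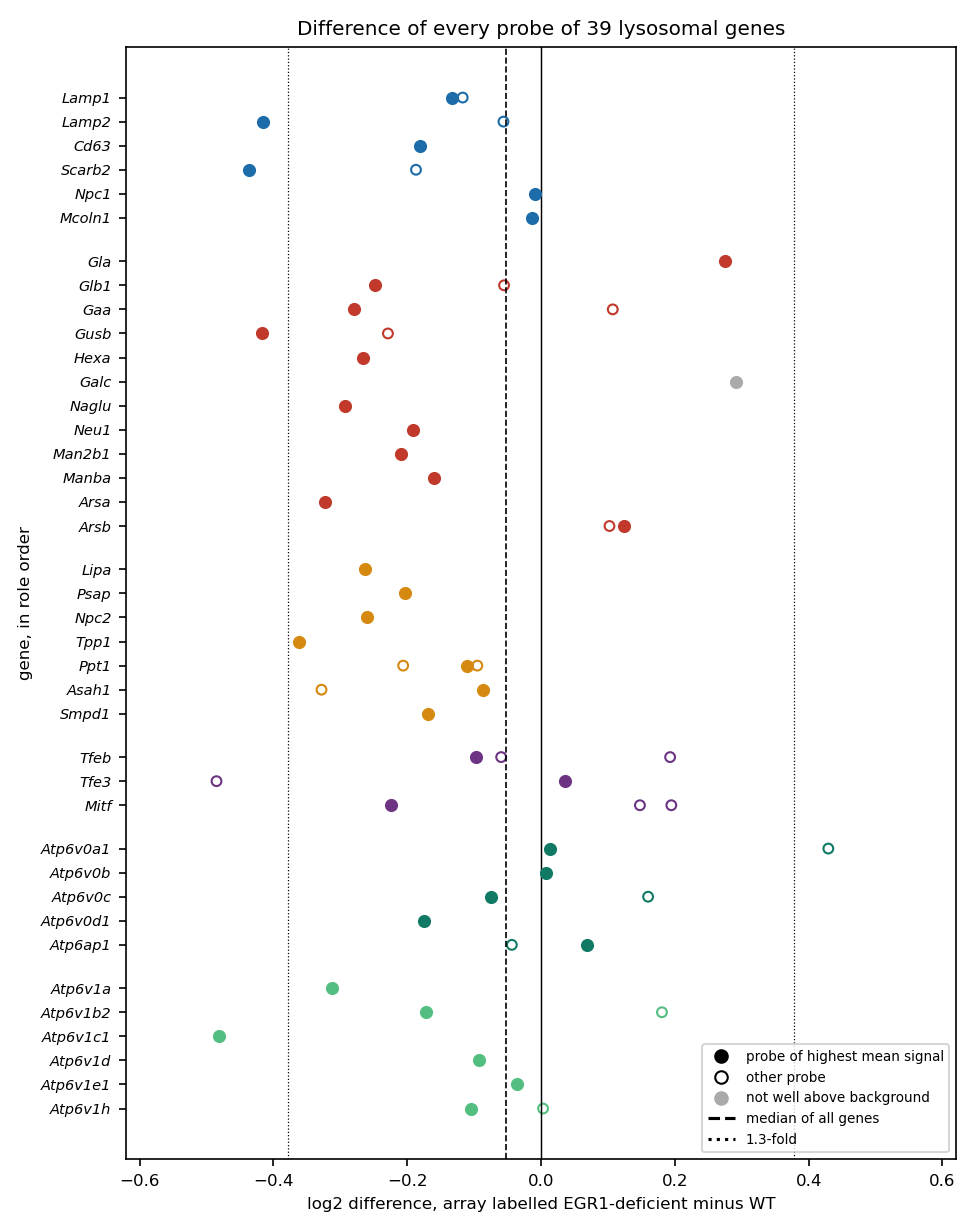
Log2 difference (x axis) of every probe of 39 genes (y axis, in role order and coloured by role), with the chosen probe filled and other probes open, grey where not well above background. The dashed line is the median of all genes, −0.05, and the dotted lines mark 1.3-fold. Chosen probes of Lamp2, Scarb2, Gusb and Atp6v1c1 lie past the lower dotted line and none lies past the upper.

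Genes of the pathway outside the list were read in the same way. Of 22 further hydrolases and activators with a probe, 20 were measured, 16 were below 0, against 57.4% of all genes, and the median was −0.26. At 1.3-fold or more 4 were lower (20.0%, against 11.3%) and 0 higher, against 8.62%. Pla2g15, the lysosomal phospholipase A2, read 85.7 and 160.5 (−0.97), and Smpdl3a, a phosphodiesterase, 1051 and 1412 (−0.49), each by 1 probe. After normexp background correction the differences of the 20 ran from −0.52 to 0.07, so that of Pla2g15 was smaller. The median of the 20 was below 0 under all 8 alternatives as well, from −0.38 to −0.15.

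Other lysosomal groups were less uniform. Of 23 further membrane proteins and transporters, 15 were below 0 (65.2%, against 57.4% of all genes) with a median of −0.08, which turned to 0.03 in the authors' series table and to 0.0021 after loess. By 1.3-fold 3 were lower (13.0%, against 11.3%) and 1 higher, against 8.62%. They went both ways: Abca2 read 107 and 147 (−0.53), the chloride exchanger Clcn7 96.5 and 127 (−0.47), and the cationic amino acid exporter Slc66a1 72.4 and 48.7 (0.50, with 0.53 in its other probe). Of 20 further pump subunits and assembly factors 15 were measured, 11 below 0 with a median of −0.10, or 0.01 in the authors' series table. Those below 0 are 73.3%, against 57.4%, and by 1.3-fold 3 were lower (20.0%, against 11.3%) and 1 higher, against 8.62%. Tmem199, an assembly factor, read 38.4 and 109 (−1.57, 1 probe), Atp6v1e2 59.3 and 32.4 (0.81), and Atp6v0d2, a subunit of osteoclasts and macrophages, 531 and 701 (−0.47, with −0.09 in the other probe). After normexp background correction the differences of these 15 ran from −0.68 to 0.38, so those of the dim Tmem199 and Atp6v1e2 were smaller.

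Genes that send enzymes to the lysosome had 20 of 24 below 0 (83.3%, against 57.4% of all genes) and a median of −0.19. By 1.3-fold 4 were lower (16.7%, against 11.3%) and 0 higher, against 8.62%. Nagpa, which uncovers the mannose 6-phosphate tag on the enzymes, read 590.1 and 777 (−0.46). The adaptor Gga3 read 162 and 206 (−0.41, but −0.21 in its other probe), and the trafficking subunit Bloc1s1 499 and 622 (−0.38). A list of nutrient-sensing and other genes linked to TFEB had 17 of 22 below 0 (77.3%, against 57.4%) with a median of −0.12. It mixes genes that hold TFEB in the cytosol with genes that act the other way, so the count has no direction for TFEB. By 1.3-fold 1 was lower (4.55%, against 11.3%). The kinase Mtor read 40.2 and 59.6 (−0.63) by 1 dim probe, Flcn, which acts on the Rag GTPases, 353 and 434 (−0.37, and −0.35 in its other probe), and the GTPase Rragc 328 and 399 (−0.35, but 0.11 in its other probe).

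Markers of macrophages, which are rich in lysosomes, also lay lower. Below 0 were 17 of the 19 macrophage markers measured (89.5%), against 57.4% of all genes, and their median was −0.37. The summed signal of the 20, as a multiple of the 75th percentile of the array, was 591 in the sample labelled EGR1-deficient and 765 in WT. Chil3 carried most of that gap, and without it the sums were 468 and 544. Cd163 was not well above background in either. Cd68, a marker that is itself a lysosomal membrane protein, read 8539 and 10293 (−0.34). Osteoclast markers gave 8 of 9 below 0 (88.9%) with a median of −0.22. Their sums were 36.6 and 40.7, and without Acp5 32.0 and 33.5. Of the 8, Nfatc1 (−0.0096), Car2 (−0.0014) and Tnfrsf11a (−0.0007) were below 0 by less than the technical error. Itgb3 was at −0.22 but at 0.14 in its other probe. Calcr, Ctsk and Ocstamp are not among the 9, being well above background only in the sample labelled EGR1-deficient. Calcr read 218 and 3.62, at least 12.8-fold higher in the sample labelled EGR1-deficient. Markers of mast cells, basophils and eosinophils gave 13 of 14 below 0 (92.9%) with a median of −0.42 and sums of 39.3 and 53.1. The 16 measured dendritic cell markers had 9 below 0 (56.2%), a median of −0.02 and sums of 308 and 321. Neutrophil markers, all 13 measured, had 6 below 0 (46.2%), a median of 0.00 and sums of 756 and 721. Of the B cell markers 7 of 9 were measured, 5 of them below 0, with a median of −0.71 but sums of 4.55 and 4.13, which without Pax5 were 2.55 and 2.69. Of T and NK cell markers 6 of 10 were measured, 2 below 0, with a median of 0.28 and sums of 3.98 and 2.71. Stromal markers, of which 5 of 11 were measured, had 2 below 0 and a median of 0.98. By 1.3-fold 3 of these 5 stromal markers were higher, against 8.62% of all genes. Their sums were 60.5 and 62.9, nearly all from Acta2, and 2.25 and 1.63 without it. In RNA from a whole culture, fewer cells of a type and less RNA per cell cannot be told apart, and the part of these markers in the lysosomal differences was not tested.

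Across 8 other ways of processing the same arrays, 20 of the 38 genes were below 0 in every one that gave a value, 2 were above 0 in every one, and 16 changed sign. The 2 were Gla and Arsb. The 20 were Lamp2, Cd63, Scarb2, Glb1, Gaa, Gusb, Hexa, Naglu, Neu1, Man2b1, Manba, Arsa, Lipa, Psap, Npc2, Tpp1, Smpd1, Atp6v0d1, Atp6v1a and Atp6v1c1, of which 14 are enzymes or proteins of the lumen. These sign counts were not made over all genes, so they have no background to be set against. Several of the 8 ways move every gene by a constant or only change the filter on dim probes, so they are not independent checks. The size depended on the scale: scaling to the array median shifted all genes to a median of −0.17 and the authors' series table to 0.06, against which the lysosomal genes lay at −0.29 and −0.06. Relative to the median of all genes these are −0.12 in both, the same as −0.12 on the percentile scale, while quantile and loess normalization gave −0.05 each. In the authors' values 23 of 38 were below 0 (60.5%), against 40.2%, and scaling to the array median gave 36 of 38 (94.7%), against 71.6%.

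**Figure D4:**
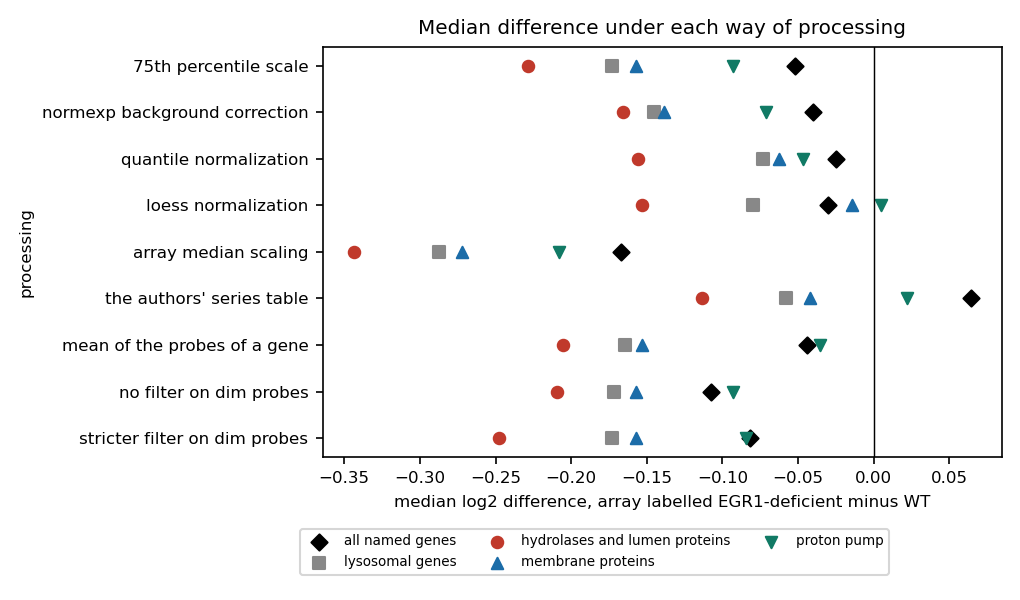
Median log2 difference between the sample labelled EGR1-deficient and WT (x axis) under each way of processing (y axis), for all named genes, the lysosomal genes and 3 role groups among them. Hydrolases and lumen proteins lie furthest left in every row and the lysosomal genes lie left of all genes in every row, whereas the proton pump stands at 0.0049 after loess and 0.02 in the authors' series table.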

How the data were processed

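The values are spot intensities on a linear scale, background-subtracted and detrended, taken from the scanner files that the authors deposited. Agilent Feature Extraction 12.1.0.3 made them, per the file headers, while the submitters' processing notes name 11.5.1.1. The authors' series table of intensities equals these values times 1 constant per array, 6.18 for the sample labelled EGR1-deficient and 5.97 for WT, and served as an alternative. It lists only 29296 spots, so its shares and medians of all genes are over 12741 genes and not 13722.

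Each array held 59305 non-control spots, of which 59.8% (sample labelled EGR1-deficient) and 55.2% (WT) were well above background, with 0 saturated. The average negative control was 41.3 and 38.7, the first marked in the header as outside its accepted range. Outlier spots (77 and 79) were left out. The log2 of each intensity, less that of the 75th percentile on its array (191.6 and 183.0), was averaged over repeated spots. Probes were named by transcript accession through a RefSeq table of GRCm38.p6 (34560 probes, 23782 genes). The array headers name an older build, so only the promoter windows carry coordinates. With 1 array per group there is no test, and array number limits the precision.

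The scripts were tested on simulated data. Alternatives were normexp (limma 3.58.1, R 4.3.3, offset 50, on median signals, mean signals not being used here), quantile and loess normalization, median scaling, the series table, averaging the probes of a gene, no dim filter and a stricter one. Every gene of the list is named. Of each further list the 3 largest differences are named among genes above background on both arrays, except 1 that is not reported here, and genes outside these rules (Cd68 and the label checks) serve as checks. Summed marker signals are over the brightest probe of every listed gene, divided by the 75th percentile of the array. The lysosomal genes and all lists were chosen with earlier results of these data known. No protein comparison was made.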

Additional observations from a re-analysis of the deposited data

How the results depend on the processing

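The median difference of the lysosomal genes kept its direction under all 8 alternatives, from −0.29 to −0.06. The number lower by 1.3-fold or more, 4 (against 11.3% of all genes), was 2 after quantile normalization (against 11.9%) and 1 after loess (against 12.8%). It was 11 with median scaling (against 21.3%) and 0 in the authors' series table (against 5.27%). When the probes of a gene were averaged it was 1 (2.63%, against 10.2% of all genes). The number higher, 0 (against 8.62%), was 1 after loess (against 7.27%) and 1 in the series table (against 14.1%). The median of the 3 transcription factors turned from −0.10 to 0.017 in the series table and 0.012 with the mean of probes. Further membrane proteins turned from −0.08 to 0.0021 after loess and 0.035 in the series table, and further pump subunits from −0.10 to 0.014 in the series table. Median scaling and the series table move every gene by 1 constant, which by construction gives their changes. The cause of the other changes was not tested. No paired analysis was possible because each group has 1 sample, and for the same reason no sample could be left out. Galc was below the limit of detection, and genes near background, such as Gaa and Atp6v1c1, are the least certain.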

Other observations

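Autophagy genes, whose products deliver the cell's own material to lysosomes, had a median close to that of all genes. Of 23 measured, 15 were below 0 (65.2%, against 57.4%) with a median of −0.04, against −0.05 for all genes. In the authors' series table, which gives 22 of them, these medians were 0.08 and 0.06. On the percentile scale none was lower by 1.3-fold, against 11.3% of all genes, and 1 was higher, against 8.62%. Atg14, a subunit of the lipid kinase that starts autophagosomes, read 71.0 in the sample labelled EGR1-deficient and 49.9 in WT (0.44). Wipi2, which recognises the lipid this kinase makes, read 18.7 and 23.0 (−0.36), close to background. Map1lc3a, a ubiquitin-like protein attached to the autophagosome membrane, read 296 and 356 (−0.33). Each rests on 1 probe.

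Lysosomal genes with and without the E-box near the start site had similar median differences. The 10 genes with CACGTG in the promoter window had a median of −0.21 with 8 below 0. The 23 measured genes without it had −0.18 with 19 below 0. Of all genes 57.4% were below 0. The 4 genes with the 8-base TCACGTGA ranged from Gla at 0.27 to Atp6v1a at −0.31. These are descriptions of single readings and were not tested.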
